A study of Macaca mulatta with 13 samples.

Results

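The nuclear-encoded structural subunits of mitochondrial complex I were examined in vastus lateralis, a thigh muscle, of rhesus monkeys. Members were the genes whose symbols in the array's annotation begin with NDUFA, NDUFB, NDUFC, NDUFS or NDUFV followed by a digit, or are NDUFAB1, and the NDUFAF assembly factors were left out. This gave 26 genes on 44 probe sets, of 14132 genes named by a single symbol on the array. The samples were 13 male animals with 1 array each. The control group was 5 monkeys on a control diet, aged 27 to 30 years, and the calorie restriction (CR) group was 8 monkeys aged 27 to 32 years, on restriction for 18.5 years. The design text words that duration for both groups together, and it was read here as that of the CR group. No genotype, drug or other treatment was named for either group, and the size of the restriction was not stated. Each sample was whole muscle, so a lower level of an RNA in a cell type and fewer cells of that type cannot be told apart in any value given here. The comparison asked how muscle transcripts differed between monkeys on long-term restriction and monkeys on the control diet.

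Complex I, NADH:ubiquinone oxidoreductase, is the entry point for electrons from NADH into the respiratory chain of the inner mitochondrial membrane. Its peripheral arm reaches into the matrix: the N module takes electrons from NADH onto a flavin, a chain of iron-sulfur clusters carries them inward, and the Q module hands them to ubiquinone. The membrane arm pumps protons with the energy released. Catalysis is carried by core subunits, and the accessory subunits around them serve in assembly, stability and regulation. Skeletal muscle is rich in the complex, slow oxidative fibres more so than fast glycolytic ones. The core subunits of the membrane arm are encoded by mitochondrial DNA, and 0 of those 7 genes were named in the annotation. Of 39 nuclear genes listed by their place in or beside the complex, 26 were measured. The other 13 were not analysed here, among them NDUFAB1, the mitochondrial acyl carrier protein. NDUFB8 was left out because its 2 probe sets were annotated with several symbols.

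Values are array signals on a linear scale, scaled so that the trimmed mean signal was 500 on every array, and the brightest of a gene's probe sets was used for it. Muscle identity was clear in all 13 arrays: the summed signal of 8 measured muscle markers, among them CKM (muscle creatine kinase) and MB (myoglobin), ran from 317028 to 750207. Pairs of arrays correlated at 0.834 to 0.940 over log2 signals. The array of control replicate 4 stood apart by a quality weight of 0.485, the lowest of the 13, where the highest was 1.54. It also had the highest 3′ over 5′ log2 ratio of the actin control probe sets, 2.41 against 1.06 to 2.08 on the other arrays. The same ratio of the GAPDH control probe sets was not extreme on it, at 0.728 against 0.305 to 0.906 on the others.

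No complex I subunit differed between diets at the threshold, although 25 of the 26 had a higher mean under CR. The exception was NDUFA4L2, and for comparison 49.8% of all 9812 genes tested had a higher mean under CR. The median CR minus control difference over the 26 genes was 0.17 on the log2 scale, against -0.0016 over all genes tested. Single differences ran from -0.47 to 0.33. By limma, 0 of the 26 had an adjusted p under 0.05, with each at an adjusted p of 0.999, and 0 of 26383 probe sets on the whole array, or 0%, passed that threshold. By the unadjusted limma p, 0 of 26 members were under 0.05, beside 1.82% of genes tested. The lowest exact two-sided permutation p of any member was 0.172, for NDUFC1, in a design where the smallest p possible is 0.000777. Groups overlapped for every member, and they overlapped for all but 0.0611% of genes tested.

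That direction count changed with 1 animal. Without control replicate 4, 14 of 26 members had a higher mean under CR, where 50.6% of all genes tested did, and the median difference was 0.014. The intervals were wide beside these differences: the median 95% half-width was 0.44 on the log2 scale, and the bounds over all members reached from -1.37 to 0.85. With 5 and 8 arrays, the number of arrays limits the precision of each value.

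**Figure D1:**
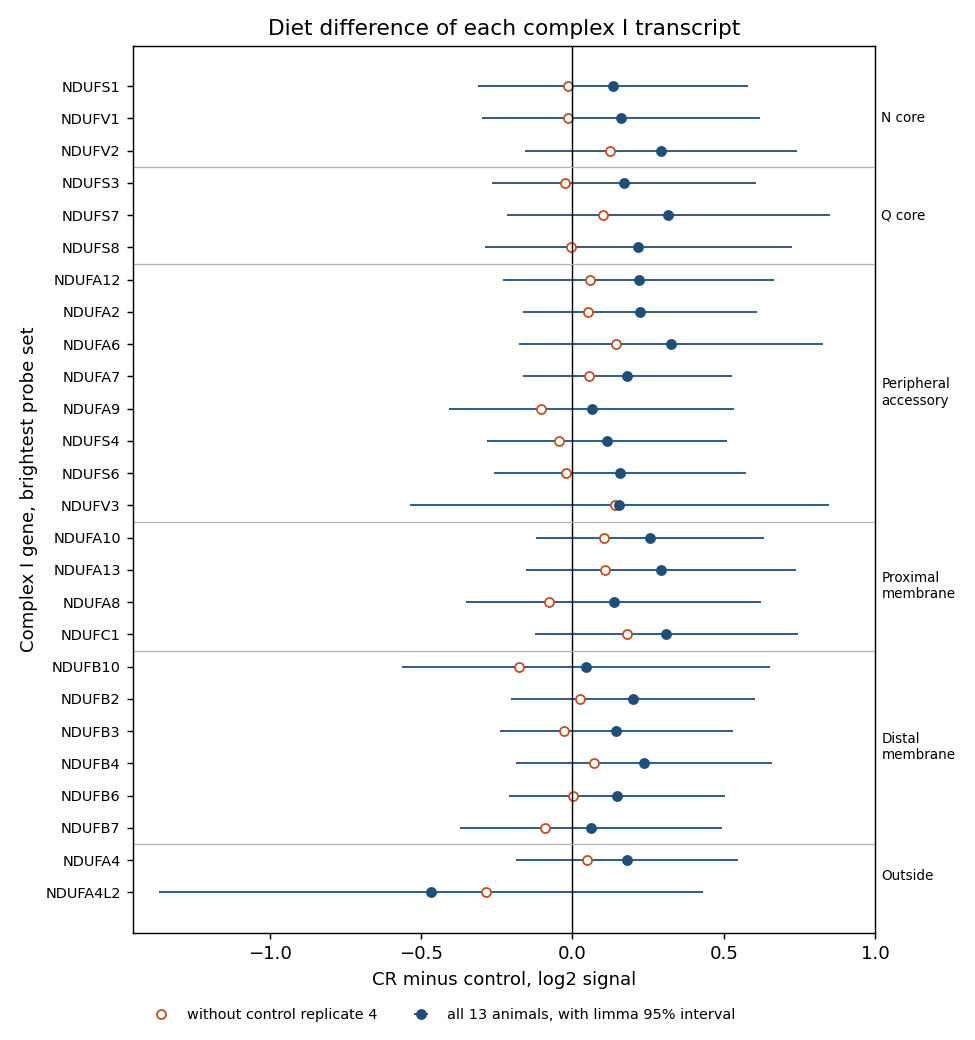
Difference in mean log2 signal, CR minus control, for each of the 26 subunits, grouped by place in the complex, with 95% intervals from the limma fit and the value without control replicate 4. Every interval crosses 0, and 14 of 26 values stay above 0 when that animal is left out.

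The core of the N module was measured by all 3 of its genes. Their differences were 0.13 to 0.29, none past the threshold, and the module's median was 0.16 with all animals and -0.014 without control replicate 4. NDUFV1, which binds NADH and the flavin, gave control signals of 6274, 4541, 3218, 2603 and 5728 for replicates 1 to 5. Under CR the lowest NDUFV1 signal was 3498, the median 4619.5 and the highest 6132. All 8 CR values of NDUFV1 lay within the control range, whose low end was replicate 4. Its difference was 0.16 ± 0.22 (SE, log2 scale) with all animals and -0.015 without replicate 4.

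NDUFV2, the iron-sulfur subunit beside NDUFV1, gave control signals of 23654, 17863, 18680, 11549 and 23655. The CR signals of NDUFV2 ran from 13053 through a median of 24247 to 30123. Although 4 of 8 CR animals exceeded the highest control, CR replicate 2 lay below all controls but replicate 4. The difference for NDUFV2 was 0.29 ± 0.21 (SE), with a 95% interval of -0.16 to 0.74, and 0.12 without control replicate 4. NDUFS1, the large subunit that holds several of the iron-sulfur clusters, gave 27995, 19686, 13724, 12975 and 29406 in the controls and 15730 to 27683 under CR, with a median of 21053. The whole CR group of NDUFS1 sat inside the control range, between a pair of low controls and a pair of high ones. Its difference was 0.13 ± 0.21 (SE) and -0.014 without control replicate 4.

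In the Q module, 3 core genes were measured, with a median difference of 0.22 and of -0.0041 without control replicate 4. NDUFS3, a core protein of the module, gave control signals of 16546, 12401, 8587, 6298 and 13198. Its CR signals were 8924 at the lowest, 12379 at the median and 15129 at the highest. Again 8 of 8 CR values lay within the control range, and the medians of the groups nearly coincided, at 12401 and 12379. The difference in means of NDUFS3 was 0.17 ± 0.21 (SE), or -0.024 without control replicate 4.

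NDUFS7 carries the last iron-sulfur cluster before ubiquinone. Its control signals were 22344, 13564, 9429, 7212 and 19361, and its CR signals ran from 12067 to 21753 with a median of 16384. Controls 3 and 4 lay below every CR animal for NDUFS7 and control 1 lay above every one. The difference of 0.32 ± 0.25 (SE), with an interval of -0.22 to 0.85, was the largest in the core and was 0.099 without control replicate 4. NDUFS8, a ferredoxin-like subunit that holds the clusters next to it in the chain, followed the same order of controls, at 10702, 8008, 4975, 3776 and 10186. Its CR signals ran from 5302 to 10340 with a median of 8237. For NDUFS8 too all CR values lay inside the control range, and the difference was 0.22 ± 0.24 (SE), or -0.0041 without control replicate 4.

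Accessory subunits of the peripheral arm were measured by 8 of 9 listed genes. All 8 means were higher under CR, by 0.063 to 0.33 with a median of 0.17, and 0.053 without control replicate 4, when 5 of 8 were higher. NDUFA6, an LYR-motif protein that docks the acyl carrier protein, had the largest difference among the 25 genes with a higher mean under CR. Its control signals were 24575, 14343, 13146, 8857 and 16164, and its CR signals were 10315 at the lowest, 18842 at the median and 24994 at the highest. CR replicate 2 and control replicate 4 were the lowest arrays for NDUFA6, and 7 of the 8 restricted animals exceeded the mean control log2 signal. The difference was 0.33 ± 0.24 (SE), with an interval of -0.18 to 0.83, and 0.15 without control replicate 4.

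NDUFA7 had the smallest residual SD of the members, 0.27 on the log2 scale. Its difference was 0.18 ± 0.16 (SE), or 0.054 without control replicate 4. NDUFS6, a zinc-binding subunit at the joint of the N and Q modules, had a difference of 0.16 ± 0.20 (SE), or -0.021 without control replicate 4. NDUFV3, a small N-module subunit, was among the 3 dimmest members. Its control signals were 150, 107, 226, 159.5 and 220, and its CR signals ran from 111 to 357 with a median of 175. The lowest NDUFV3 signal was in control replicate 2, not replicate 4, and the difference was 0.16 ± 0.33 (SE). The other 4 genes of the class, NDUFA2, NDUFA9, NDUFA12 and NDUFS4, had differences of 0.063 to 0.22.

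In the proximal part of the membrane arm, next to the peripheral arm, 4 of 9 accessory genes were measured. The median difference of the class was 0.27, and 0.11 without control replicate 4. The order of the class medians was not the same under every alternative: without control replicate 1 the Q-module core stood at 0.37 and this class at 0.35. NDUFC1, a small single-span membrane subunit, gave control signals of 28569, 17875, 20823, 14389 and 23953. Its CR signals ran from 17841 to 36527 with a median of 26789. The upper 4 of the 8 CR animals exceeded every control for NDUFC1, while CR replicate 1 lay just under control replicate 2. The difference was 0.31 ± 0.21 (SE), or 1.24-fold, with an interval of -0.13 to 0.74, and 0.18 without control replicate 4.

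NDUFA10, which has a nucleoside-kinase-like fold, gave control signals of 4789, 4943, 4398, 3106 and 7114. Its CR signals ran from 4624 to 7209 with a median of 5756. Every CR animal was above controls 3 and 4 for NDUFA10, and control 5 was above all CR animals but 1. The difference was 0.26 ± 0.18 (SE), and 0.11 without control replicate 4, but -0.25 when the gene's probe sets were averaged. NDUFA13, also known as GRIM-19, crosses the membrane near the ubiquinone site. Its control signals were 19493, 14170, 10587, 7869 and 16790, and its CR signals ran from 10919 to 20571 with a median of 17244. For NDUFA13 7 of 8 CR values lay within the control range, with a difference of 0.29 ± 0.21 (SE), and 0.11 without control replicate 4. NDUFA8, a cysteine-rich protein of the intermembrane space, differed by 0.14 and by -0.078 without that animal.

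The distal end of the membrane arm was represented by 6 of 11 accessory genes, all of the NDUFB series. Their differences were 0.045 to 0.24 with a median of 0.15, and -0.013 without control replicate 4. NDUFB4 and NDUFB2 were, with NDUFC1, the members with the brightest probe sets. NDUFB4 gave control signals of 39967, 31741, 23018, 17350 and 29980 and CR signals of 25811 to 41685. NDUFB2 gave 37244, 29777, 26853, 16900 and 31094 in the controls and 25290 to 43628 under CR. In both genes control replicate 4 was the low point and CR replicate 3 the high point. The differences were 0.24 ± 0.20 (SE) for NDUFB4 and 0.20 ± 0.19 (SE) for NDUFB2. Without control replicate 4 they were 0.071 and 0.025.

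NDUFB10 and NDUFB7, cysteine-rich subunits on the intermembrane-space side, had the smallest differences of the class. NDUFB10 gave 1222, 692, 443, 359 and 963 in the controls and 435 to 957 under CR, a difference of 0.045 ± 0.29 (SE). All its CR values lay within the control range, and the difference was -0.18 without control replicate 4. Its probe set is of a design that can share probes with other transcripts, as are those used for NDUFA2, NDUFA6, NDUFB7 and NDUFS8. NDUFB7 differed by 0.062 and NDUFB6, with a residual SD of 0.28, by 0.15. Without control replicate 4 the differences were -0.089 for NDUFB7 and 0.0026 for NDUFB6.

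NDUFA4 and NDUFA4L2 carry complex I symbols but lie outside its structure. NDUFA4 is now placed in complex IV, and NDUFA4L2 is its hypoxia-inducible relative. NDUFA4 followed the subunits of complex I, with control signals of 27116, 21642, 22658, 14946 and 23433 and CR signals of 18748 to 31527 around a median of 25411. Its difference was 0.18 ± 0.17 (SE), or 0.047 without control replicate 4. NDUFA4L2 had the only lower mean under CR, with control signals of 90.3, 226, 126, 252 and 123 and CR signals of 33.7 to 186 around a median of 137. Here control replicate 4 was the highest array and CR replicate 1 the lowest, and 3 of the 8 restricted animals exceeded the mean of the controls. The difference was -0.47 ± 0.42 (SE), with an interval of -1.37 to 0.43, and -0.28 without control replicate 4. It also had the largest residual SD of the members, 0.76, where their median was 0.38 and that of all genes tested 0.41. Leaving NDUFA4 and NDUFA4L2 out gave 24 of 24 subunits with a higher mean under CR, beside 49.8% of all genes tested. Without control replicate 4, 7 of 14 peripheral-arm and 6 of 10 membrane-arm genes were higher.

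The members varied together from animal to animal. As a summary, the median over the 26 genes of the log2 signal minus the gene's own mean was 0.32, -0.073, -0.27, -0.79 and 0.18 in controls 1 to 5. In CR replicates 1 to 8 it was -0.072, -0.35, 0.36, 0.020, 0.0025, 0.33, 0.21 and 0.096. Animals high and low in complex I transcripts were thus found in both groups: controls 1 and 5 ranked with the high CR animals, and CR replicate 2 was lower than 4 of the 5 controls. The group values were -0.13 ± 0.44 (SD, n = 5) in controls and 0.073 ± 0.23 (SD, n = 8) under CR. Control replicate 4 was the lowest of all 13 arrays for 24 of the 26 genes, beside 16.7% of all genes tested, and NDUFV3 and NDUFA4L2 were the exceptions. Among the CR animals, replicate 2 was the lowest for 18 of the 26. The SD was larger in controls than under CR for 24 members, and for 13 of 26 without control replicate 4.

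**Figure D2:**
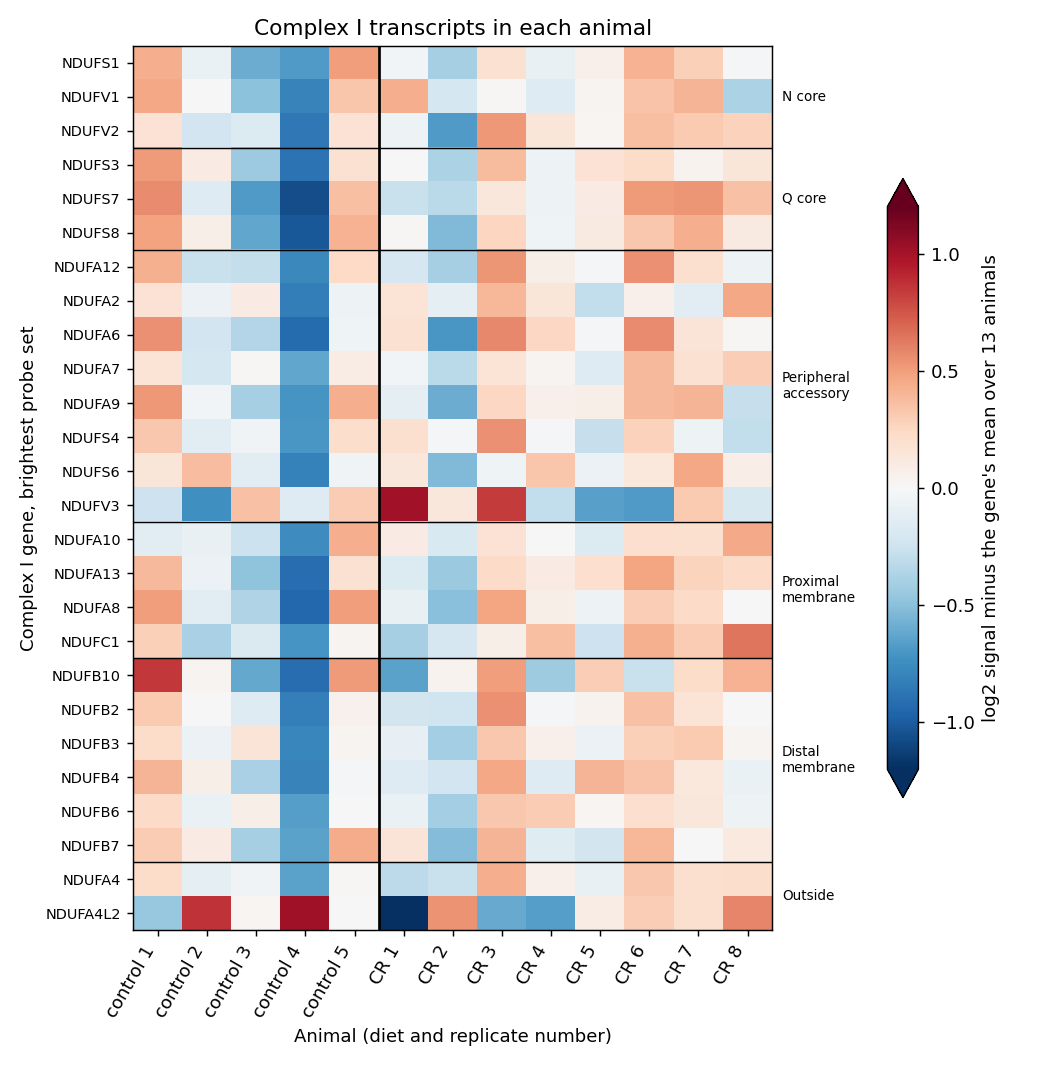
Log2 signal minus the gene's mean over 13 arrays for the 26 subunits (rows, by place in the complex) in each animal (columns, controls then CR), with colours saturating at 1.2 in either direction. Control replicate 4 is the low column for all rows but NDUFV3 and NDUFA4L2, and CR replicate 2 is low among the CR animals.

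The 2 arms of the complex were compared within each animal. The median of the peripheral arm genes minus that of the membrane arm genes lay between -0.066 in CR replicate 2 and 0.13 in CR replicate 1. In control replicate 3 the Q-module core was at -0.62, while the accessory genes of the peripheral arm were at -0.091. After the diet means were removed, the median Pearson r over the 325 pairs of members was 0.72, with quartiles of 0.55 and 0.84. Over all pairs of genes tested the median was 0. A median r for other respiratory or bright genes alone is not given here. Subunits of complexes II to V had medians of 0.37, 0.028, -0.28, -0.69 and 0.25 in controls 1 to 5. In CR replicates 1 to 8 those medians were -0.034, -0.34, 0.33, -0.045, -0.066, 0.23, 0.31 and 0.021. The correlations are over 13 arrays that share preparation and scaling, and they are given as a description. Without control replicate 4 the median r over the 325 pairs of members was 0.55. NDUFA12, which sits where the N and Q modules meet, had the highest median r with the other members, 0.85 with all arrays and 0.78 without that animal. NDUFA4L2 at -0.30 and NDUFV3 at -0.041 were apart from the rest, of which the lowest was NDUFB10 at 0.58.

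Low values in control replicate 4 were also found outside complex I. Among the other genes tested with a mean signal above 4096, which 22 of the members exceeded, 43.2% of 1176 had their lowest signal in that animal. Of these bright genes 71.6% had a higher mean under CR, with a median difference of 0.10, and without control replicate 4 the share was 59.2%. The 22 bright members were all higher under CR with a median of 0.19, and 13 of them, or 59.1%, were higher without that animal. Summed marker signals of the tissue were low in this animal too. The 8 muscle markers summed to 317028 in it, the low end of a control range that reached 710964, and to 415059 to 750207 in the CR animals. The 5 fast-fibre markers summed to 269096 in it, again the lowest of 13, with controls up to 500233 and CR animals from 297786 to 545221. For the 7 slow-fibre markers it had 82029, with controls up to 497192 and CR animals from 22705 to 539239. These lists share genes, so their sums are not separate measures. MYH2, TNNT3 and TNNC2 are in both the muscle and fast-fibre lists, and TNNT1 and TNNC1 in both the muscle and slow-fibre lists.

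Several markers of other cell types were high in control replicate 4. For 8 endothelial and mural markers it had the highest summed signal, 22603, with controls down to 6959 and CR animals from 4876 to 18039. For 6 fibroblast and matrix markers it was also highest, at 141637, with CR animals from 40665 to 99105. In that animal 4 of the 8 vessel markers and 4 of the 6 matrix markers were at their highest. The same held for 1 of 4 adipocyte, 0 of 4 macrophage and 0 of 3 blood markers. The share of all genes tested at their highest in that animal is not given here. At their lowest in that animal were 3 of 8 muscle, 2 of 5 fast-fibre and 0 of 7 slow-fibre markers. For comparison, 16.7% of all genes tested and 43.2% of the other bright genes were lowest in it. The 4 adipocyte markers measured summed to 37959 in it, the most of any control, with other controls down to 5550 and CR animals from 5127 to 45223. The 4 macrophage markers summed to 3771, again the most of any control, with CR animals from 1872 to 4961. Blood markers, 3 in number, were not extreme in it, at 43139 within a control range of 4385 to 67268. No list had a marker at the floor on every array.

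The marker lists also differed in direction between diets, with 0 of the markers past the limma threshold. A higher mean under CR was found for 0 of 8 endothelial and mural markers, 0 of 7 slow-fibre markers and 0 of 3 blood markers. For comparison, 49.8% of all genes tested had a higher mean under CR. The marker counts include control replicate 4, highest in the endothelial and mural sum, and CR replicate 8, lowest in the slow-fibre sum. Counts without either animal are not given here. The adhesion protein PECAM1 differed by -0.54 and the tight-junction protein CLDN5 by -1.01, both of endothelium, and the slow troponin TNNT1 by -0.45. Among the rest, 4 of 8 muscle, 4 of 5 fast-fibre, 3 of 6 fibroblast and matrix, 1 of 4 adipocyte and 1 of 4 macrophage markers had a higher mean under CR. MYH2, TNNT3 and TNNC2 were counted in both the muscle and the fast-fibre list. The part of cell make-up, of RNA quality and of this array in the diet difference of complex I was not tested. CR replicate 8 was the lowest for slow-fibre markers, with a median of -3.51 against the gene means, and its complex I median was 0.096.

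Several members had further probe sets, and these did not always follow the brightest one. For 13 genes there were 18 others, of which 17 were tested and 10 of the 17 had the same sign as the brightest. The 4 with a mean signal above 1024 had a median r of 0.80 with the brightest over 13 arrays, from -0.53 to 0.92, and the 14 below it a median r of 0.046, from -0.64 to 0.85. Signs were opposite in at least 1 tested probe set of NDUFA10, NDUFA6, NDUFB7, NDUFS6, NDUFS7 and NDUFV2. For NDUFA6 the others gave 0.29, 0.14, -0.040 and -0.16. For NDUFS6 they gave -0.21 and 0.34, for NDUFS7 -0.13 and for NDUFV2 -0.10, with a limma adjusted p of 0.999 for each.

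The lowest p-values of any member probe set belonged to dim ones of NDUFA10 and NDUFB7, with lower signals under CR. The dimmer probe set of NDUFA10, with a mean signal of 290, had log2 signals of 8.41, 8.53, 8.74, 8.12 and 8.92 in the controls. Its CR values ran from 7.13 to 8.38. No CR animal reached the control mean, and 2 of 8 lay inside the control range. The difference was -0.75 ± 0.25 (SE), with an exact permutation p of 0.0117 and a limma adjusted p of 0.999.

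NDUFB7's dimmer probe set, with a mean signal of 248, had log2 signals of 8.33, 7.98, 8.48, 8.06 and 8.62 in the controls and 6.76 to 8.13 under CR. Again no CR animal reached the control mean and 2 lay inside the control range. The difference was -0.68 ± 0.25 (SE), with an exact permutation p of 0.0109 and a limma adjusted p of 0.999. These were 2 of the 17 other probe sets tested with an unadjusted limma p under 0.05, a share to be read beside 2.43% of all probe sets tested. Their values correlated with the brightest probe set of the same gene at 0.067 for NDUFA10 and -0.073 for NDUFB7, and with each other at 0.47. Without control replicate 4 the differences were -0.85 and -0.74. Which of the probe sets follows the annotated transcript was not tested.

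**Figure D3:**
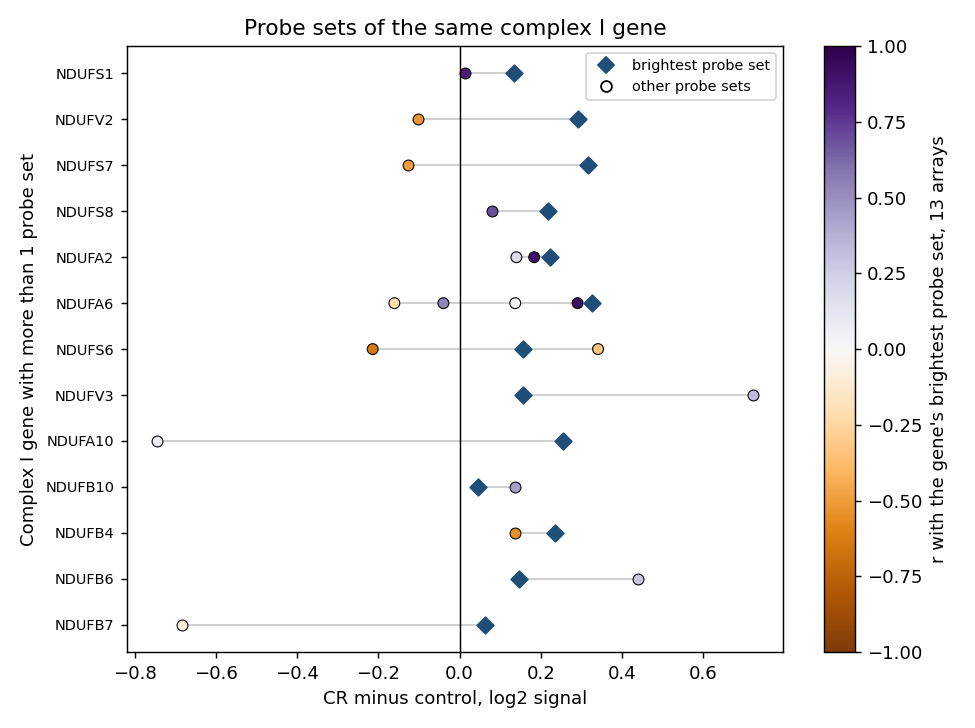
Difference in mean log2 signal, CR minus control, of each probe set of the 13 complex I genes with more than 1 probe set. Diamonds are the brightest probe sets and circles the others, coloured by their r with the brightest over 13 arrays. The dimmer probe sets of NDUFA10 and NDUFB7 lie at -0.75 and -0.68.

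Assembly factors build complex I from intermediates and are not part of the finished enzyme. Of 18 listed, 16 were measured and 15 tested: 12 had a higher and 3 a lower mean under CR, and 0 of 15 passed the limma threshold. Their median difference was 0.19, and 0.014 without control replicate 4, whose own median for these genes was -0.51. NDUFAF7, a mitochondrial methyltransferase, had a difference of 0.41 ± 0.22 (SE), and 0.34 without control replicate 4, while its other probe sets gave -0.45 to 0.17. TMEM126B and NDUFAF1 belong to the machinery that assembles the membrane arm, and differed by 0.25 ± 0.16 (SE) and 0.23 ± 0.19 (SE). COA1 and TMEM186, of the same machinery, had lower means, with differences of -0.19 ± 0.19 (SE) and -0.16 ± 0.22 (SE). Without control replicate 4 the differences were 0.23 for TMEM126B, 0.10 for NDUFAF1, -0.34 for COA1 and -0.29 for TMEM186. FOXRED1, a flavin-binding assembly factor, differed by -0.0078 ± 0.15 (SE), and its sign was positive with quantile normalization and with median centring.

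The subunits of complexes II to V are given for comparison. Of 29 tested, 22 had a higher mean under CR with a median difference of 0.13, and without control replicate 4 10 of 29 did, with a median of -0.029. Control replicate 4 stood at -0.69 for these genes, beside -0.79 for complex I. The medians were 0.15 for complex II, 0.25 for complex III, 0.094 for complex IV and 0.13 for complex V, and 0.17 for complex I. No difference between complex I and the other complexes was tested, since the genes were measured in the same animals and are not replicates.

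**Figure D4:**
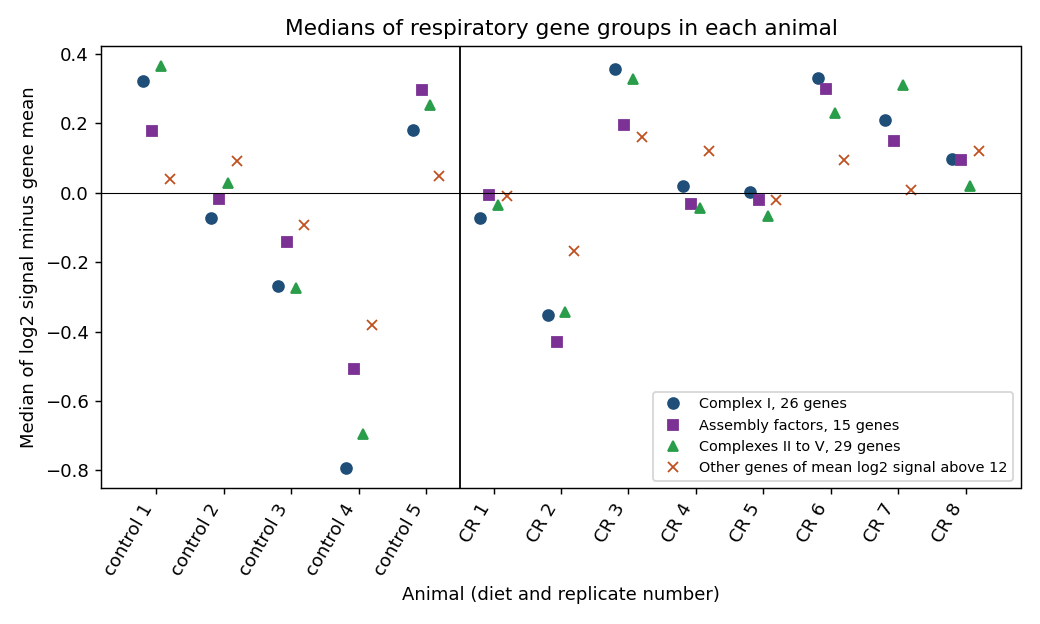
Median log2 signal minus gene mean per animal for the complex I subunits, the assembly factors and the subunits of complexes II to V, in 5 control and 8 CR animals. Crosses give the other genes tested with a mean log2 signal above 12. Control replicate 4 is the lowest in each group of genes, at -0.79, -0.51, -0.69 and, for those other bright genes, -0.38.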

How the data were processed

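Total RNA from 1 muscle sample per animal was made into biotin-labelled cRNA for Affymetrix arrays of 1 colour, per the labels' protocols. The authors deposited linear intensity values, 1 per probe set in each animal, and the submitters' processing notes name MAS5, without a version. The table held 52865 probe sets, and 99 control probe sets were removed. Signals were floored at 1 (137 values) and log2 transformed, and the dimmer 50% by mean log2 signal were left out, leaving 26383 with a mean signal of at least 107. Of the non-control probe sets, 24956 had 1 gene symbol in the platform annotation, 361 had several and 27449 had none listed. The brightest probe set by mean log2 signal stood for each gene, and all 26 members passed the filter.

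Diets were compared in R 4.3.3 by limma 3.58.1 (lmFit, then eBayes with an intensity trend). P-values were two-sided and adjusted by Benjamini-Hochberg over all 26383 probe sets, with a threshold of 0.05. The exact permutation test ran over the 1287 splits of 13 animals. A self-test on simulated data was run before the fit. Named genes were the core subunits, up to 5 members by p in each direction, the 3 brightest and dimmest, the 3 with the largest and smallest residual SD, members whose probe sets differ in sign, NDUFA4, NDUFA4L2 and NDUFAB1, and 3 assembly factors by p in each direction. Other members and the probe sets of NDUFA10 and NDUFB7 were named after their values were seen. Members and lists were chosen with earlier results of these data known, and the group of bright genes was added after the values were seen. Sequences and promoters were not analysed here.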

Additional observations from a re-analysis of the deposited data

Results flagged for a closer look

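Log2 signals of the 26 members and the 6 named assembly factors, and the member median per animal, were checked within each diet group for an animal far from the others, 66 groups in all. There were 4 such groups, where a rate of 1 in 20 would give 3.30 of 66. The genes vary together over the same animals, so the count cannot be judged against that rate. Control replicate 4 lay far below the other controls for NDUFA2, at 13.02, and for NDUFB3, at 11.01. CR replicate 2 lay far below the other CR animals for NDUFA6, at 13.33, and for COA1, at 9.59.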

How the results depend on the processing

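The count of members past the adjusted threshold was 0 under every alternative run. Members with a higher mean under CR numbered 14 to 25 when each animal was left out in turn, with 14 without control replicate 4, and 20 to 25 under the other alternatives. Their median difference was 0.014 to 0.27 on leaving out animals and 0.10 to 0.21 otherwise, and medians below 0 for classes within the complex came from leaving out control replicate 4 and, for the core N module (-0.0090), from adding 3′ over 5′ ratios as covariates. The cause was not tested.

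Signs of single genes turned. FOXRED1 was 0.027 with quantile normalization, 0.032 with median centring. With array weights NDUFB10 was -0.080 and NDUFB7 -0.035. With 3′ over 5′ covariates NDUFS1 was -0.040, NDUFV1 -0.0090, NDUFA9 -0.078, NDUFB10 -0.074 and NDUFB7 -0.080. With probe sets averaged per gene NDUFA10 was -0.25 and NDUFB7 -0.31. With the replicate number as a replicate block, which the labels do not tie to shared animals, NDUFA9 was -0.025, NDUFB10 -0.019 and NDUFB7 -0.027, 22 members were higher, and the median was 0.12. Same-numbered deviations correlated at -0.20 to 0.020, so the numbers were not taken as pairs.

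Leaving out animals in turn gave -0.061 to 0.048 for FOXRED1, -0.0045 to 0.27 for NDUFV3, -0.18 to 0.26 for NDUFB10, -0.089 to 0.18 for NDUFB7, -0.014 to 0.28 for NDUFS1, -0.024 to 0.32 for NDUFS3, -0.0041 to 0.37 for NDUFS8, -0.015 to 0.30 for NDUFV1 and -0.021 to 0.27 for NDUFS6. Without control replicate 4 NDUFA9 was -0.10, NDUFA8 -0.078, NDUFS4 -0.044 and NDUFB3 -0.029. With median centring the median of all genes was 0.038, against -0.0016 before it. Dim probe sets limit NDUFV3 and NDUFA4L2.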
